A study of Rattus norvegicus with 6 samples.

Results

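Hepatocytes take up drugs, bile acids, bilirubin and hormone conjugates from blood across their basolateral membrane and pump the products into bile across the canalicular membrane. In rat liver, Slco1a1 and Slco1a4 are organic anion transporting polypeptides of the basolateral side, Slc22a7 is an organic anion transporter of the same side, Abcc2 is the canalicular pump for glucuronide and glutathione conjugates, and Abcb1b is a P-glycoprotein that exports lipophilic drugs. The results below describe these 5 genes. All probe sets whose single gene symbol in the array's platform annotation was one of them were taken, which gave 6 probe sets among 8740 on the array (array controls aside): 1 each for Slco1a1, Slco1a4, Abcc2 and Abcb1b, and 2 for Slc22a7. Of the 6, 5 probe sets of 4 genes lay above the intensity filter and were tested, while the Abcb1b probe set lay below it.

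The data are 6 Affymetrix RG_U34A arrays of liver RNA from male Sprague Dawley rats, 3 in the NASH group, named for nonalcoholic steatohepatitis, and 3 in the Control group. NASH rats received a liquid diet with 70% corn oil at 220 kcal per day, and Control rats one with 5% corn oil at 187 kcal per day, both per kg of metabolic body mass. Both groups were fed by total enteral nutrition, in which the diet is infused rather than eaten, for 3 weeks. Corn oil content and energy supply differ together, so the comparison is between whole diets. The groups follow the sample titles, since the free-text description of all 6 samples repeats that of the first Control sample. Whether each array had its own animal is not stated in the sources used here, so p-values cover only the spread between these arrays, which may be technical.

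Arrays stood apart in both groups. When limma weighted the arrays, Control 2 and Control 3 had the lowest weights, 0.454 and 0.488, against 0.777 for NASH 2. The deposited trimmed mean signals ranged from 73.6 to 117, and correlations between the log2 values of arrays ranged from 0.930 to 0.970 over 15 pairs. NASH 2 was the array with fat and muscle transcripts. The summed quantile-normalized signal of 8 measured adipocyte markers (of 9 listed) was 3959 there. NASH 1 and NASH 3 had 542 and 638 and Control arrays 468 to 490. For 6 measured skeletal muscle markers (of 8), NASH 1 and NASH 3 had 73.6 and 102 and Control arrays 55.2 to 94.4. NASH 2 had a sum of 2223 for these. Its instrument record also lists 1 scan, where the other 5 list 2, and its scanner fields hold implausible entries, such as a pixel size of 37356 where the other 5 have 3. Control 3 stood out in RNA quality: its ratios of signal from the 3' over the 5' end of control transcripts were 5.07 for actin (2.15 to 2.93 elsewhere) and 2.04 for Gapdh (1.08 to 1.29 elsewhere). The same sum for 14 measured hepatocyte markers (of 15) lay between 51974 and 54038 in NASH and between 51593 and 56688 in Control arrays. Quantile normalization evens out the brightest probe sets between arrays, so this sum does not measure hepatocyte content. No deposited marker value of any list was 0.

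Slco1a1, which takes up bile acids, steroid conjugates and other organic anions in rat liver, did not differ between the diets beyond its spread. Its deposited signal, a linear intensity from the authors' MAS5 processing, was 204, 86.6 and 121 on NASH arrays 1 to 3, against 232, 174 and 90.3 on Control arrays 1 to 3. Each group thus held 1 low array, NASH 2 and Control 3, and the groups overlapped. After quantile normalization, on the log2(signal + 2.21) scale used for all log2 values here, Slco1a1 averaged 7.11 ± 0.58 on NASH and 7.25 ± 0.62 on Control arrays (SD, n = 3 each). The difference, NASH minus Control, was -0.14 ± 0.39 (standard error) with a limma adjusted p of 0.937. Its 95% interval ran from 2.06-fold lower to 1.69-fold higher in NASH, so changes of either sign up to these sizes are not excluded by 3 arrays a group. As these are bulk liver samples, fewer cells of a type and less RNA per cell cannot be told apart.

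Both low arrays had nearly the same Slco1a1 level, 6.46 in NASH 2 and 6.54 in Control 3, with a gap of 0.78 on the log2 scale to the next array. The within-group SD of Slco1a1 was larger than that of 85.9% of tested probe sets. NASH 2 and Control 3 were the lowest pair of arrays for 388 of the 5244 tested probe sets (7.40%). That is near an even share among the 15 possible pairs, so the count does not set this pair apart. NASH 2 is the array with fat and muscle transcripts and Control 3 the one with high 3' to 5' ratios. The part of either in the Slco1a1 values was not tested.

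Slco1a4, a transporter of bile acids and of the heart drug digoxin in the rat, had the widest within-group spread of the 5 tested probe sets of these transporters. Its deposited signals were 635, 229 and 620 on NASH arrays, against 601, 515 and 685 on Control arrays. NASH 2 alone was low, while the other 2 NASH arrays lay within the Control range of deposited signals, so the groups overlapped. On the log2 scale Slco1a4 averaged 8.87 ± 0.89 on NASH and 9.18 ± 0.23 on Control arrays (SD, n = 3 each), a difference of -0.31 ± 0.41 (standard error, limma adjusted p = 0.865). The 95% interval ran from 2.38-fold lower to 1.55-fold higher in NASH. Without NASH 2 the difference was 0.18 and no longer negative.

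The gap of NASH 2 below the next array was 1.04 for Slco1a4, or 2.06-fold. Of the tested probe sets, 20.3% were lowest in NASH 2, but for 0.82% (43 of 5244) the gap was at least as large as that of Slco1a4. Slco1a1 was also lowest in NASH 2, although Control 3 lay close beside it there and was the second highest array for Slco1a4. The profiles of the 2 paralogs over the 6 arrays were therefore alike in NASH 2 and unlike in Control 3, with a root mean square distance between their centred log2 profiles of 0.55.

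**Figure D1:**
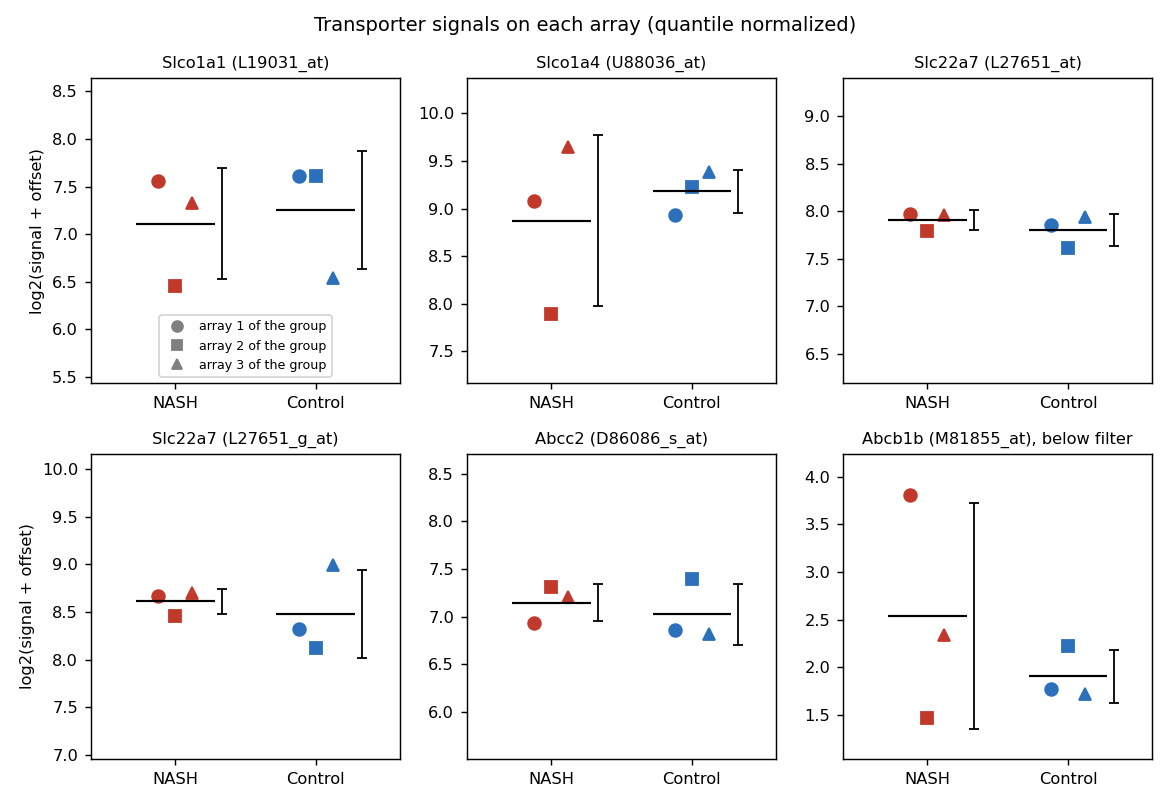
Quantile-normalized log2(signal + 2.21) of the 6 transporter probe sets on each array, NASH at left (red) and Control at right (blue), on vertical axes of equal span; circles, squares and triangles are arrays 1, 2 and 3 of a group, horizontal lines are group means and bars are 1 SD (n = 3). Slco1a4 stands at 7.89 in NASH 2 and at 8.93 or above elsewhere, Slco1a1 is low in NASH 2 and Control 3, and the groups overlap in every panel.

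Slco1a1 and Slco1a4 are neighbours in a run of related genes on rat chromosome 4. The order of protein-coding genes in RefSeq's GRCr8 annotation is Slco1c1, Slco1b2, Slco1a4, Slco1a1, Slco1a3, Slco1a6 and Slco1a5. Their promoter windows, 250 bases before to 50 bases after the annotated start (RefSeq, GRCr8), are printed because they show how alike the pair is outside the coding sequence. The Slco1a1 window is chr4:176681943-176682242 and the Slco1a4 window is chr4:176495797-176496096, both on the minus strand and written 5′ to 3′. Capitals mark aligned stretches of at least 8 identical bases.
Slco1a1: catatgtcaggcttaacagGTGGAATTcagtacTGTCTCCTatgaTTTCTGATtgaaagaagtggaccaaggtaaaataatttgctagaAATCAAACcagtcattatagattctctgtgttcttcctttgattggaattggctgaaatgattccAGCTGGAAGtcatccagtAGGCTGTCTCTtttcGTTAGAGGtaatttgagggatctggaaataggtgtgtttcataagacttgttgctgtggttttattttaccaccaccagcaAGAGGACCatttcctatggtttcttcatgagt
Slco1a4: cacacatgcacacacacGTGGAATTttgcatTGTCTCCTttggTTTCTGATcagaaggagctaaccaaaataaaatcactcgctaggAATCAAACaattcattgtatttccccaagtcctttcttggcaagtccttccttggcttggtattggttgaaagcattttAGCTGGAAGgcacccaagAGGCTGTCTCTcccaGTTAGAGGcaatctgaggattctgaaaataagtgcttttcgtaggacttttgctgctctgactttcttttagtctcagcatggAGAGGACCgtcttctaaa
In a global alignment, 206 of 283 aligned bases (72.8%) were identical between these windows, with 8 identical stretches of 8 or more bases and a longest one of 11. The other 9 pairs of promoters of the 5 genes had 53.5% to 62.8% identity by the same alignment, a longest identical stretch of 7 and none of 8 or more. The letters CCAAT, searched on both strands, occurred in the windows of all 5 genes, against 37.5% of 33469 rat promoters in the same table. TATAAA occurred in 0 of the 5 (14.2% of all promoters) and GGGCGG in 3, those of Slc22a7, Abcc2 and Abcb1b (33.1% of all promoters). These letters were chosen after the sequences had been seen, so the counts are description and no test.

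Slc22a7, first cloned from rat liver and known to carry organic anions such as salicylate and prostaglandins, had overlapping levels on both diets, and 1 of its probe sets had the smallest spread of the 6. Its probe set L27651_at had deposited signals of 279, 215 and 190 on NASH arrays, against 276, 175 and 250 on Control arrays. The second probe set, L27651_g_at, gave 467, 329 and 335 on NASH arrays, against 391, 246 and 529 on Control arrays. Both overlapped between the groups, and both were lowest in Control 2 after normalization. For L27651_at the log2 means were 7.91 ± 0.10 on NASH and 7.80 ± 0.17 on Control arrays (SD, n = 3 each), a difference of 0.10 ± 0.19 (standard error, limma adjusted p = 0.909).

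The interval of that difference ran from 1.26-fold lower to 1.46-fold higher in NASH, the narrowest of the 5 tested probe sets. L27651_g_at averaged 8.61 ± 0.13 on NASH and 8.48 ± 0.46 on Control arrays (SD, n = 3 each), with a difference of 0.13 ± 0.25 and an adjusted p of 0.912 by limma. The wider Control spread of this probe set came with Control 3, at 8.996, against 8.32 and 8.12 on the other Control arrays. Both probe sets were made from 1 sequence record and are no independent measurements of the gene. Their centred profiles lay 0.19 apart (root mean square, log2), nearer than any other pair of tested probe sets of the 4 genes, whose distances ranged from 0.33 to 0.69.

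Abcc2, the pump whose loss in the rat causes conjugated hyperbilirubinaemia, had closely similar levels on both diets. Its deposited signals were 131, 157 and 109 on NASH arrays, against 136, 151 and 110 on Control arrays. The groups covered almost the same range. Abcc2 averaged 7.15 ± 0.20 on NASH and 7.02 ± 0.32 on Control arrays on the log2 scale (SD, n = 3 each), a difference of 0.13 ± 0.23 (standard error, limma adjusted p = 0.911). The 95% interval ran from 1.34-fold lower to 1.59-fold higher in NASH. Here NASH 2 was the highest NASH array and Control 2 the highest of all, so NASH 2 was not low for every transporter.

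The Abcc2 promoter window is printed because it holds an everted repeat of the hexamer AGTTCA with an 8-base spacer. No other rat promoter window searched held these exact letters at this spacing. It lies at chr1:252613625-252613924 on the plus strand (RefSeq, GRCr8), and capitals mark the hexamers of an everted repeat.
Abcc2: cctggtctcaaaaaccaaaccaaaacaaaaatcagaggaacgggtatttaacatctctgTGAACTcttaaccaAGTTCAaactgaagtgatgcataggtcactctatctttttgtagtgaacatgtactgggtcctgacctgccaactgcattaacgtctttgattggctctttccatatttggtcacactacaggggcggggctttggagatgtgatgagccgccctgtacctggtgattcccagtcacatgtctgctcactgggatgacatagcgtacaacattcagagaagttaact
Everted repeats of this hexamer are known from the rat Abcc2 gene as elements bound by the nuclear receptors Nr1i2 (PXR), Nr1i3 (CAR) and Nr1h4 (FXR) together with Rxra. The motif searched was TGAACT, 8 bases of any kind and AGTTCA, which reads the same on both strands and contains 2 matches to AGTTCA. It occurred in 1 of 33469 promoter windows (0.00299%), that of Abcc2, where its first base lies at position -191 from the annotated start. The hexamer AGTTCA alone, on either strand, occurred in the windows of Abcc2 and Slc22a7 and in 14.5% of all promoters. All motifs searched were chosen after the promoter sequences had been seen, so the match of the repeat in Abcc2 was fixed in advance. Variant hexamers and other spacers were not searched, and a match describes the letters and not binding.

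Abcb1b, one of 2 rodent P-glycoproteins that share the work of the single human MDR1 gene, was dim on all 6 arrays. Its deposited signals were 12.4, 0.513 and 2.07 on NASH arrays, against 1.04, 3.59 and 0.793 on Control arrays. NASH 1 was the highest and NASH 2 the lowest array, so the groups overlapped and the NASH group alone spanned the Control range. The log2 means were 2.54 ± 1.19 on NASH and 1.90 ± 0.28 on Control arrays (SD, n = 3 each), a difference of 0.63, both below the filter at 3.94. In a fit without the filter the limma unadjusted p of Abcb1b was 0.275 and its adjusted p 0.822. Without NASH 1 the difference was -0.0013, so that the positive value rests on this array. The neighbouring paralog Abcb1a also lay below the filter (difference -0.15), and probes of such similar genes may share transcripts.

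Together, 3 of the 5 tested probe sets of these transporters were higher and 2 lower in NASH, and limma called 0 of them at an adjusted p under 0.05 or at an unadjusted p under 0.05. Over the whole array it called 7 of 5244 probe sets at the adjusted threshold (0.133%) and 412 at the unadjusted one (7.86%). The groups overlapped for all 5, while they did not overlap for 14.3% of all tested probe sets. The median difference of the 5 was 0.10 on the log2 scale, against -0.02 over all tested probe sets, and the median absolute difference was 0.13, against 0.23 over all. Their median within-group SD was 0.34, against 0.32 over all. Slc22a7 supplies 2 of the 5 probe sets, both higher in NASH, and these are no independent measurements. Each median of the 5 is a value of a Slc22a7 probe set, so the medians are no summary by gene. With shares of 0.133% and 7.86% as background, a count of 0 among 5 does not set these genes apart from the array as a whole.

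**Figure D2:**
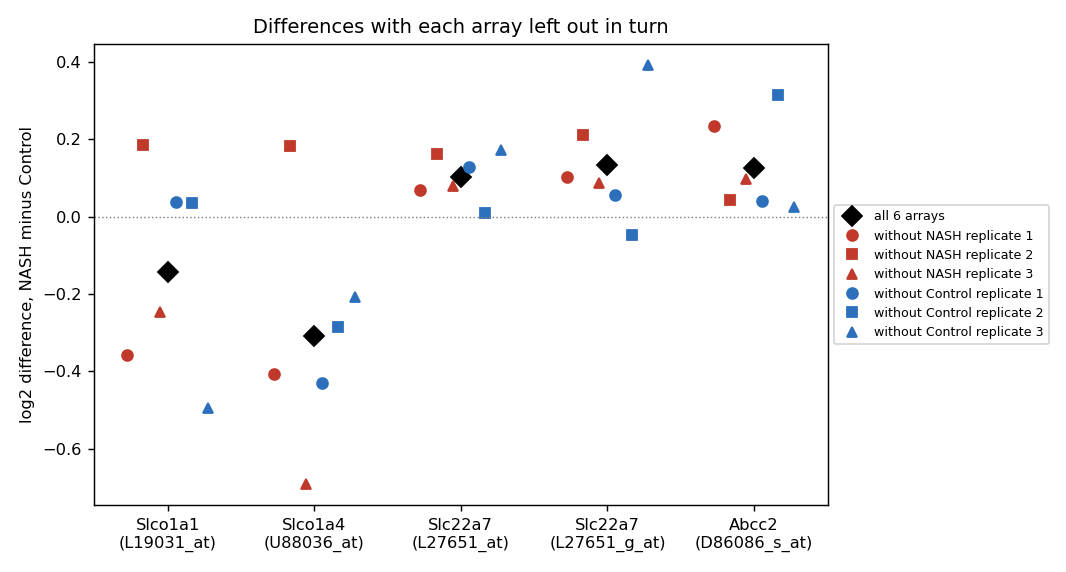
Difference of each tested transporter probe set (vertical axis, log2, NASH minus Control) with all 6 arrays (black diamonds) and with 1 array left out at a time (red for NASH, blue for Control arrays). Without NASH 2 the differences of Slco1a1 and Slco1a4 were 0.18 each, above 0, while with all arrays they were -0.14 and -0.31.

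Leaving out single arrays turned the sign of Slco1a1 for 3 arrays, from -0.50 without Control 3 to 0.18 without NASH 2. For Slco1a4 the values ran from -0.69 without NASH 3 to 0.18 without NASH 2, the 1 array that turned its sign. Those of L27651_at (Slc22a7) stayed between 0.0087 and 0.17 and those of Abcc2 between 0.02 and 0.32. L27651_g_at (Slc22a7) ran from -0.05 without Control 2 to 0.39 without Control 3. No tested member had an adjusted p under 0.646 in any of these or the other fits.

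The hybridization date in the instrument record was filled for 4 arrays and blank for NASH 3 and Control 2. Arrays are called filled or blank in wash record by this date alone. Among the filled ones the recorded hybridization times of both NASH arrays were later than those of both Control arrays, so within them the run and the diet cannot be told apart. Within the filled arrays Slco1a4 differed by -0.67, and between NASH 3 and Control 2 by 0.41, so its direction did not hold within both sets. Slco1a1 differed by -0.07 within the filled and -0.28 between the blank arrays, and Abcc2 by 0.28 and -0.19. L27651_at and L27651_g_at (Slc22a7) differed by -0.02 and -0.09 within the filled and by 0.34 and 0.58 between the blank arrays. With the record as a block, the limma adjusted p-values of the tested members were 0.858 or above.

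Genes with profiles nearest to the 2 Slco members were listed by root mean square distance between centred log2 values over the 6 arrays. For Slco1a1 these were Trdmt1 (0.14), the protein disulfide isomerase P4hb (0.15) and the hydroxysteroid dehydrogenase Akr1c14 (0.17). All 3 were low in NASH 2 and Control 3. For Slco1a4 they were Adap1 (0.18), the nuclear RNA binding protein Hnrnpu (0.19) and Samd4b (0.21), each with its lowest value in NASH 2. As the genes were picked by profile, these shared dips follow from the selection. Slc22a7, Abcc2 and Abcb1b varied too little over the arrays or lay below the filter, and no such genes were sought for them.

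**Figure D3:**
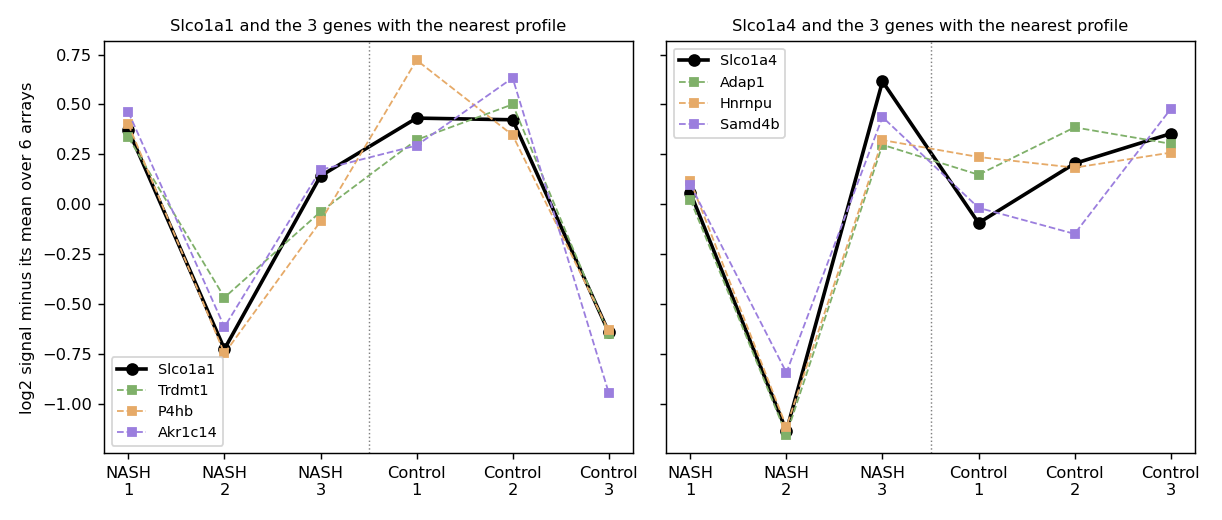
Log2 signal minus its mean over the 6 arrays (vertical axis) for Slco1a1 (left) and Slco1a4 (right), each in black with the 3 genes of nearest profile in colour, NASH arrays left of the dotted line and Control arrays right of it; lines only join the points of a gene. Slco1a1 and its 3 genes dip in NASH 2 and Control 3, and Slco1a4 and its 3 genes in NASH 2.

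Other transporters of the same families and of the hepatocyte membranes gave 26 measured genes on 4 lists, with 20 above the filter. Of these, 10 were higher and 10 lower in NASH with a median difference of -0.0032 on the log2 scale, and limma called 0 at an adjusted p under 0.05 and 5 at an unadjusted p under 0.05, against 0.133% and 7.86% of all tested probe sets. For 5 of the 20 the groups did not overlap, against 14.3% of tested probe sets. Several of these genes had larger differences than the members. The carnitine transporter Slc22a5 had signals of 122, 85.7 and 221 on NASH arrays, against 81.5, 50.7 and 75.3 on Control arrays. Its difference was 1.10 ± 0.43 (standard error, limma adjusted p = 0.582), and it was 0.60 without NASH 3.

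Abcb4, the canalicular flippase for phosphatidylcholine, had signals of 137, 129 and 98.4 on NASH arrays, against 93.4, 96.6 and 37.7 on Control arrays. Its difference was 0.89 ± 0.33 (adjusted p = 0.566 by limma), and it was 0.51 without Control 3. Slc16a1, which carries lactate and ketone bodies, differed by 1.14 ± 0.42 (limma adjusted p = 0.571), with 359, 338 and 402 on NASH arrays against 331, 82.8 and 236 on Control arrays, and by 0.65 without Control 2. The second probe set of Slc16a1 differed by 0.78. On the other side, the prostaglandin transporter Slco2a1 had 645, 486 and 404 on NASH arrays, against 1005, 638 and 877 on Control arrays. Slco2a1 differed by -0.56 ± 0.16 (limma adjusted p = 0.449) and its second probe set by -0.40. The nucleoside transporter Slc29a1 had 85.7, 75.5 and 47.6 on NASH arrays, against 111, 109 and 118 on Control arrays, and differed by -0.57 ± 0.20 (adjusted p = 0.550 by limma).

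By list, 3 of 12 Slco genes outside the members were measured and 2 tested, with Slco2b1 at 0.06 beside Slco2a1. The value of Slco2b1 ran from -0.58 without Control 3 to 0.53 without Control 2. Of the Slc22 family, 7 of 14 were measured and 5 tested, 3 higher and 2 lower, with the cation transporter Slc22a2 at 0.74, Slc22a18 at -0.25 and Slc22a13 at -0.29. Leaving out 1 array gave 0.37 (without Control 3) to 1.36 (without Control 1) for Slc22a2, and 0.0067 for Slc22a13 without NASH 3. Of the ABC efflux pumps, 6 of 12 were measured and 4 tested, 2 higher and 2 lower. The bile salt export pump Abcb11 differed by 0.17, the basolateral conjugate pump Abcc3 by -0.26 and Abcc6 by -0.10 (0.0084 without NASH 2). Of the other hepatocyte carriers, 10 of 15 were measured and 9 tested, 4 higher and 5 lower, with the nucleoside carrier Slc28a2 at 0.50 and the monocarboxylate carrier Slc16a7 at 0.26 (-0.07 without Control 3 and 0.74 without Control 2). None of these passed the adjusted threshold. Slco2b1, Slc22a2, Slc22a13 and Abcc3 were dim, with mean log2 of 4.39, 4.33, 4.59 and 4.25, close above the filter at 3.94.

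**Figure D4:**
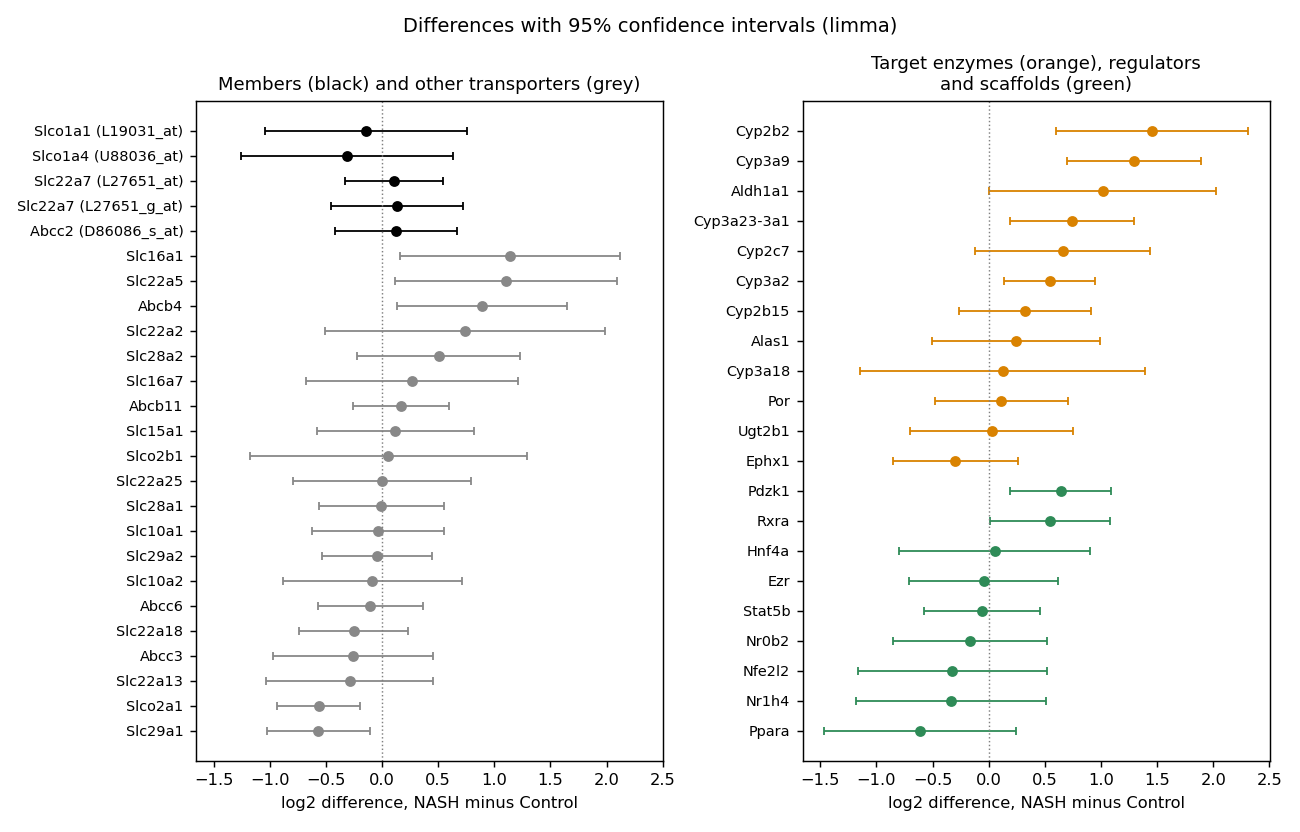
Differences (horizontal axes, log2, NASH minus Control) with 95% confidence intervals from limma; at left the tested members (black) above other tested transporters (grey), at right enzymes known as targets of Nr1i2 or Nr1i3 (orange) above regulators and scaffolds (green). The intervals of all 5 members include 0, and among the enzymes 11 of 12 points lie above 0. The lists were written with earlier results of these data known.

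Regulators and anchors of these transporters were measured in part. Of the transcription factors listed, 10 were measured and 7 tested, 2 higher and 5 lower in NASH. Limma called 0 at the adjusted and 1 (Rxra) at the unadjusted threshold, against 0.133% and 7.86% of all tested probe sets. Rxra, the partner of the receptors named above, differed by 0.54 ± 0.23 (limma adjusted p = 0.619). The fatty acid receptor Ppara differed by -0.61 ± 0.37 (limma adjusted p = 0.692). Ppara was dim, with a mean log2 of 4.29, close above the filter at 3.94. The bile acid receptor Nr1h4 differed by -0.34 and by 0.09 without NASH 2, and the oxidative stress factor Nfe2l2 by -0.33 and by 0.06 without NASH 2. A second probe set of Nfe2l2 differed by 0.04. Nr1i2 and Nr1i3 were not analysed here.

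Of 8 listed scaffold names, 3 were measured and 2 tested. Pdzk1, a scaffold known from mice to hold Slco1a1 at the hepatocyte membrane, had signals of 60.03, 57.3 and 52.7 on NASH arrays, against 39.3, 41.7 and 39.3 on Control arrays. The groups did not overlap, as for 14.3% of all tested probe sets. The Pdzk1 difference of 0.64 ± 0.20 did not pass (limma unadjusted p = 0.0114, adjusted p = 0.473). The membrane linker Ezr differed by -0.04, and by 0.09 without NASH 1.

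Enzymes known as targets of Nr1i2 or Nr1i3 were measured beside the transporters. Their list was written with earlier results of these data known, so its counts are description and no test. Of 19 listed names, 13 genes were measured and 12 tested, 11 higher and 1 lower (Ephx1, -0.30), with a median difference of 0.43, while 47.1% of all tested probe sets were higher in NASH. By limma 0 passed the adjusted and 4 the unadjusted threshold (0.133% and 7.86% of all tested probe sets), and for 4 of the 12 the groups did not overlap (14.3% of all). Cyp2b2 differed by 1.46 ± 0.37 (limma adjusted p = 0.393), with 1451, 450 and 1088 on NASH arrays against 461, 290 and 344 on Control arrays. Limma called it without NASH 2 (1.95, adjusted p = 0.0141), but not without any other single array (adjusted p 0.405 or above). Cyp3a9 differed by 1.29 ± 0.26 (limma adjusted p = 0.198), with 148, 132 and 102 on NASH arrays against 92.2, 46.2 and 42.5 on Control arrays.

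Cyp3a23-3a1 differed by 0.74 and Cyp3a2 by 0.54 (limma adjusted p = 0.503 for both). Other probe sets of Cyp3a23-3a1 gave 1.19, 0.05 and -0.07, and a second one of Cyp2b2 gave 1.17. Members of these families are similar enough for probes to share transcripts. Slco1a4 and Abcc2, which are also known as targets of Nr1i2 in the rat, had differences of -0.31 and 0.13. The difference between the enzymes and these transporters was not tested. NASH 2, the lowest array for Slco1a4, was also the lowest NASH array for Cyp2b2, Cyp3a9, Cyp3a2 and Cyp3a23-3a1 after normalization. Cyp2b2 in NASH 2 (8.96) still lay above all Control arrays (8.39 to 8.55), while Slco1a4 in NASH 2 (7.89) lay below them.

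Other cell types were looked at through marker lists. By limma 0 markers passed the adjusted threshold, while 3 of 14 hepatocyte, 1 of 7 lymphocyte, 1 of 4 endothelial and 1 of 6 adipocyte genes passed the unadjusted one, against 7.86% of all tested probe sets. The 3 hepatocyte genes (Otc, Ambp and Ass1) and the endothelial Lyve1 were lower in NASH. The lymphocyte gene Coro1a and the adipocyte gene Cidea were higher. Of the tested markers, 3 of 5 cholangiocyte, 2 of 3 macrophage, 6 of 7 lymphocyte, 3 of 4 endothelial and 2 of 6 stellate cell genes were higher in NASH. The same held for 6 of 6 adipocyte, 3 of 4 skeletal muscle, 2 of 4 kidney tubule, 3 of 4 small intestine and 8 of 14 hepatocyte genes. The summed quantile-normalized signal of 13 measured lymphocyte markers lay between 267 and 420 in NASH and between 216 and 243 in Control arrays. It was highest in NASH 2. Kidney tubule markers, of a tissue that also uses organic ion transporters, summed to 121 to 131 in NASH and 120 to 134 in Control arrays. The part of other cell types in the transporter values was not tested.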

How the data were processed

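Liver RNA of 3 NASH and 3 Control samples was measured on RG_U34A arrays, per the file headers. The deposited values are linear intensities made with MAS5 (version not stated), per the submitters' processing notes, 1 for each probe set on each array; the sources used here give no scaling target, and detection calls were not used. The deposited instrument records hold other fields only (tissue, wash and scan entries). No common scale was found between arrays, so all 8799 probe sets were quantile normalized, 2.21 was added (the 10th percentile of deposited values) and log2 was taken; folds on this scale understate dim probe sets. After removing 59 controls, the 5244 probe sets with a mean log2 above the 40th percentile (3.94) were tested with limma 3.58.1 (R 4.3.3, eBayes with trend, no covariate) and Benjamini-Hochberg adjustment, called under 0.05. The fit was tested on simulated data.

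Symbols came from the platform annotation (7006 probe sets with 1 symbol, 308 with several, 1426 not listed). Members, lists and naming rule were chosen with earlier results of these data known. Named were all members, up to 4 genes of each of 7 lists with the smallest p, and the 3 genes nearest in profile where the SD over arrays was at least 0.5. A gene's brightest probe set stood for it. Of 10 marker lists, quantile-normalized signals were summed. Promoters (RefSeq, GRCr8) were aligned with Biopython 1.88; all 5 genes matched. The number of arrays limits the precision. Other scalings, offsets and filters, a prior without trend, weighted arrays, 2 blocks and fits without single arrays were tried.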

Additional observations from a re-analysis of the deposited data

How the results depend on the processing

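Of 100 alternative values of the 5 tested transporter probe sets, 25 come from 5 settings (both other filters, no trend and both blocks) that leave the difference as it is; of the other 75, 61 kept their sign and 14 turned it. Of the 90 with a test, 0 passed the threshold (limma adjusted p 0.646 to 0.999; 0 also at an unadjusted p under 0.05), and the 10 within wash records have no test. Without scaling between arrays, Abcc2 differed by -0.0067 and L27651_at (Slc22a7) by -0.027. With array weights Slco1a4 differed by 0.082. Without both Control 2 and NASH 2, Slco1a1 differed by 0.37 and Slco1a4 by 0.21. Leaving out 1 array gave -0.50 to 0.18 for Slco1a1 (0.037 without Control 1, 0.035 without Control 2), -0.69 to 0.18 for Slco1a4 and -0.046 to 0.39 for L27651_g_at (Slc22a7). Within filled wash records L27651_at differed by -0.015 and L27651_g_at by -0.090, and between the blank ones Abcc2 by -0.19 and Slco1a4 by 0.41. Abcb1b differed by 0.23 with an offset of 16 and 0.76 with an offset of 1, and by -0.0013 to 1.16 with 1 array left out. In these cases the cause was not tested.

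Over the whole array, limma called 7 probe sets, against 14 without scaling, 18 with array weights, 16 without both Control 2 and NASH 2, 3 without an intensity trend, 3 with the wash record as a block, 0 without the filter (633 at an unadjusted p under 0.05) and 412 at an unadjusted p under 0.05. Leaving out 1 array gave 0 to 17, with 0 without Control 1, Control 3 or NASH 3, 1 without Control 2 or NASH 1 and 17 without NASH 2. With the replicate number as a block (replicate block) 1 was called and no transporter probe set; same-numbered arrays did not deviate together (correlations 0.05, -0.02 and 0.07), so they share only a number. The remaining alternatives gave 5 to 9 calls.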
